A study of Mus musculus with 18 samples.

Results

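The genes described here encode 10 carriers that move bile acids, bilirubin, drugs and other organic anions across the membranes of the hepatocyte: Slc10a1, Slco1a1, Slco1a4, Slco1b2, Slco2b1, Abcb11, Abcb4, Abcc2, Abcc3 and Abcg2. They were chosen by symbol from 52230 genes that had a summed estimated count, and all 10 were among the 10938 genes with enough counts to be tested. The study sequenced total liver RNA of 18 mice of the GKRP P-to-L knock-in line, on a C57BL/6N background, to ask how the variant form of the glucokinase regulatory protein alters the liver transcriptome. PP mice are wild type, with a proline in GKRP at the position that the knock-in changes, and LL mice carry the leucine form on both alleles of Gckr. All 18 mice were kept on a standard rodent chow diet, and there was 1 library for each mouse.

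Male PP mice (n = 4) were 9, 12, 14 and 14 weeks old by their labels, and male LL mice (n = 4) were 13 to 14 weeks old. Female PP mice (n = 5) were 9 to 14 weeks old and female LL mice (n = 5) were 11 to 14 weeks old. The description of the whole series gives 14 weeks for all mice, so the single ages disagree with it. The knock-in is present in all tissues from conception, and it changes 1 amino acid, so the amount of Gckr mRNA cannot check the genotype labels. Nothing says that mice of 1 genotype came from different litters, so p-values measure the spread between these mice.

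Hepatocytes take bile acids up from portal blood at the sinusoidal membrane, through the sodium-dependent carrier NTCP, which Slc10a1 encodes, and through the sodium-independent OATP carriers of the Slco genes. At the canalicular membrane, ATP-driven pumps of the Abc family secrete bile acids, phospholipid and conjugates into bile, and another Abc pump at the basolateral membrane returns conjugates to blood. In rodents several of these carriers are known to differ between males and females, and the pattern of growth hormone release and bile acid sensing by FXR are known regulators of the family.

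Libraries held between 3794671 and 6613905 estimated counts. The fragment length of each library was derived, not read from a label. It is the median of transcript length minus the effective length that Salmon gave, over transcripts of at least 3000 bases. This length differed between libraries, with 396 to 630 bases in male PP, 203 to 582 in male LL, 369 to 631 in female PP and 247 to 377 in female LL mice. The liver identity of the samples was plain, since 7 hepatocyte markers (Alb among them) summed to at least 465532 normalized counts in every library, while the bile duct keratins Krt19 and Krt7 did not exceed 2.96 and 2.73. None of 6 lymphocyte markers had enough counts to be tested. Of 5 pancreas or gut markers 2 were tested, Fabp2 with group means of 240 to 402 normalized counts and Lgals4 with 77.3 to 158, and pancreatic Prss1 was at 0 in all libraries. In bulk liver, fewer cells of a type and less RNA per cell cannot be told apart.

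By LL genotype no transporter gene passed the limits used for a call in either sex (adjusted P under 0.05, with a fold change of 1.3 or more or of 0.7 or less). With DESeq2, 0 of the 10 were called in males, where 0.283% of all tested genes were, and 0 of the 10 in females, where 0.658% were. At an unadjusted p under 0.05 there was 1 gene in males, Slco1a4, and 0 in females, against 7.81% and 13% of all genes, and edgeR called 0 in both sexes. By sex the result was different for a pair of genes: Slco1a4 was higher and Abcg2 was lower in females than in males, both in PP and in LL mice. These 2 of the 10 were called in each comparison of the sexes, in which 6.45% of all genes were called among PP mice and 6.12% among LL mice. At an unadjusted p under 0.05 there were 3 of the 10 genes among PP mice (17.5% of all genes) and 4 among LL mice (20% of all genes), and edgeR called 2 of the 10 in each. For the genotype by sex interaction, DESeq2 called 0 of the 10 and 0.119% of all genes, 0 of the 10 had an unadjusted p under 0.05, against 5.67% of all genes, and edgeR called 0.

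**Figure D1:**
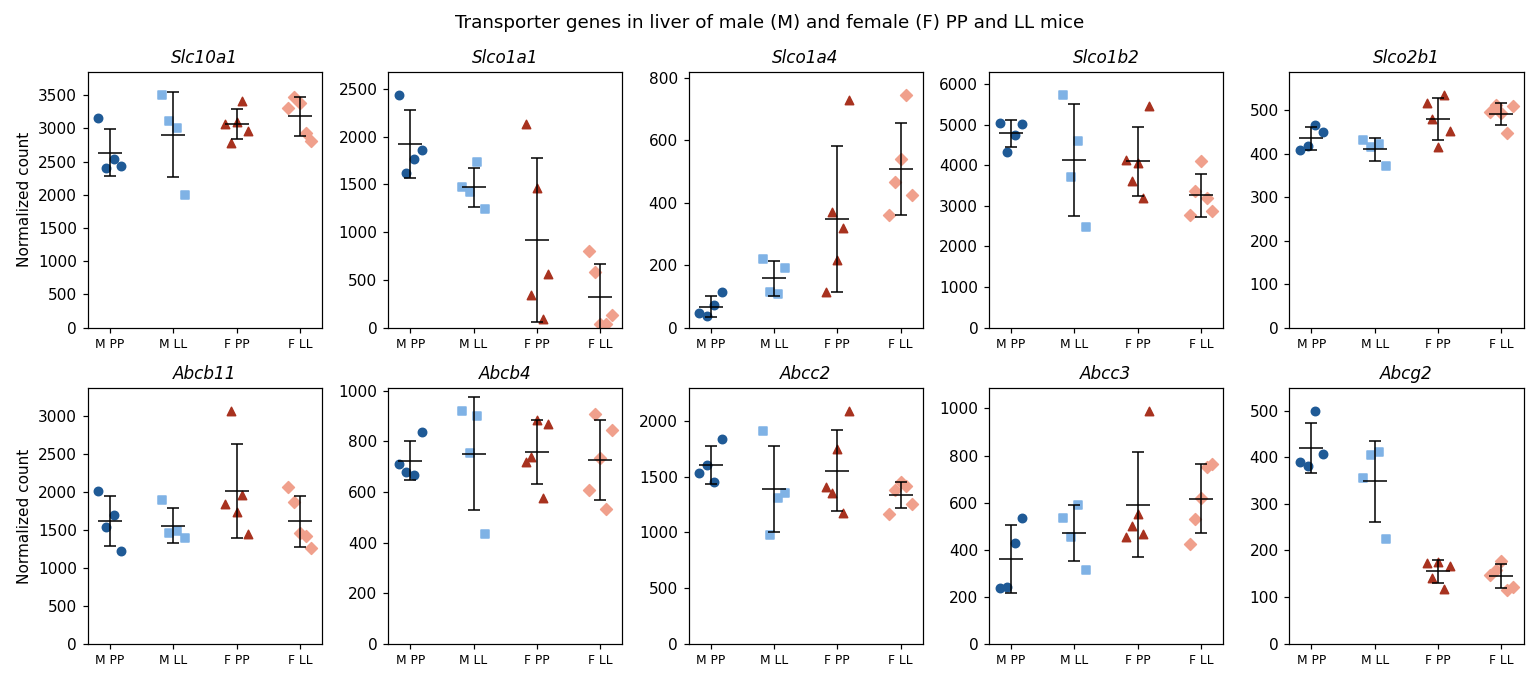
Normalized counts (y axes from 0, counts scaled by DESeq2 size factors) of the 10 transporter genes in each mouse of the 4 groups on the x axes (M, male; F, female); bars are the mean ± SD, n = 4 for each male and 5 for each female group. Slco1a4 lies between 35.7 and 113 in male PP mice and above that range in female PP mice, Abcg2 is at most 177 in the females and at least 224 in the males, and Slco1a1 spans 32.5 to 2135 among females.

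Slco1a4 encodes OATP1A4, an uptake carrier of the sinusoidal membrane for bile acids, steroid conjugates and cardiac glycosides. The 4 male PP mice had 46.4, 35.7, 71.4 and 113 normalized counts, and the 4 male LL mice had 219, 115, 107 and 190. The 5 female PP mice had 113, 369, 217, 318 and 729, and the 5 female LL mice had 362, 467, 540, 745 and 426. All 5 female PP mice stood above all 4 male PP mice, although the lowest female (113.4) was within 1 count of the highest male (112.5), and all 5 female LL mice stood above all 4 male LL mice. Among PP mice the level was 5.23-fold higher in females (log2 fold change 2.39 ± 0.46 SE, adjusted P = 1.48e-05, DESeq2 with Benjamini-Hochberg adjustment). Among LL mice it was 3.22-fold higher in females (log2 1.69 ± 0.46, adjusted P = 0.00700, DESeq2). One of the 10 genes was thus called higher in females of each genotype, beside 3.68% of all genes among PP and 3.33% among LL mice. The call in LL mice was lost, at an adjusted P of 0.0870, when DESeq2 used an offset for the average transcript length of each gene in each library.

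By LL genotype the Slco1a4 values ran in the same direction in both sexes without passing the test. Male LL mice had a mean of 158 ± 55.4 (SD, n = 4) against 66.5 ± 34.1 in male PP mice (n = 4), and the groups overlapped in the values between 107 and 113. The log2 fold change was 1.24 ± 0.49 with an unadjusted p of 0.0113 and an adjusted P of 0.269 in DESeq2, and over 27 alternative fits the adjusted P ranged from 0.0513 to 0.911. Female LL mice had a mean of 508 ± 147 (n = 5) against 349 ± 234 in female PP mice (n = 5), a log2 fold change of 0.54 ± 0.43 (adjusted P = 0.595, DESeq2). The difference between the sexes in this effect was -0.70 ± 0.65 on the log2 scale, with an adjusted P of 0.804 in DESeq2.

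Slco1a1 encodes OATP1A1, a sinusoidal uptake carrier for sulfated steroids and bile acids that is known to be abundant in male mouse liver. Male PP mice had 2435, 1617, 1765 and 1863 normalized counts and male LL mice had 1476, 1424, 1733 and 1242. Female PP mice had 2135, 337, 1465, 87.0 and 560, and female LL mice had 800, 582, 32.5, 42.0 and 130. The males were close to each other, whereas the females ran over a wide scale. Female PP mouse 1 (2135) lay within the range of the male PP mice. Female PP mouse 3 (1465) lay below all male PP mice and within the range of the male LL mice. All 5 female LL mice lay below all 4 male LL mice (4.63-fold lower by the fit, log2 fold change -2.21 ± 0.85), yet the adjusted P was 0.0944 in DESeq2. Among PP mice the sexes overlapped (log2 -1.07 ± 0.85, adjusted P = 0.600, DESeq2).

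With DESeq2 the Slco1a1 difference between female and male LL mice was called with age in weeks as a term (adjusted P = 0.0104), and without female LL mouse 1, which had the highest value of its group (log2 -2.90, adjusted P = 0.0191). By genotype the log2 fold change of Slco1a1 was -1.53 ± 0.80 in females, with a 95% interval from -3.10 to 0.04 and an adjusted P of 0.349, and -0.39 ± 0.90 in males (adjusted P = 0.959, DESeq2). Female PP and female LL mice overlapped between 87.0 and 800. The female PP mice with 2135 and 1465 counts were 9 and 11 weeks old, another 9-week-old female PP mouse had 337, and the female LL mice with 800 and 582 were both 11 weeks old. The part of age in these values was not tested apart from the fit with the age term.

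**Figure D2:**
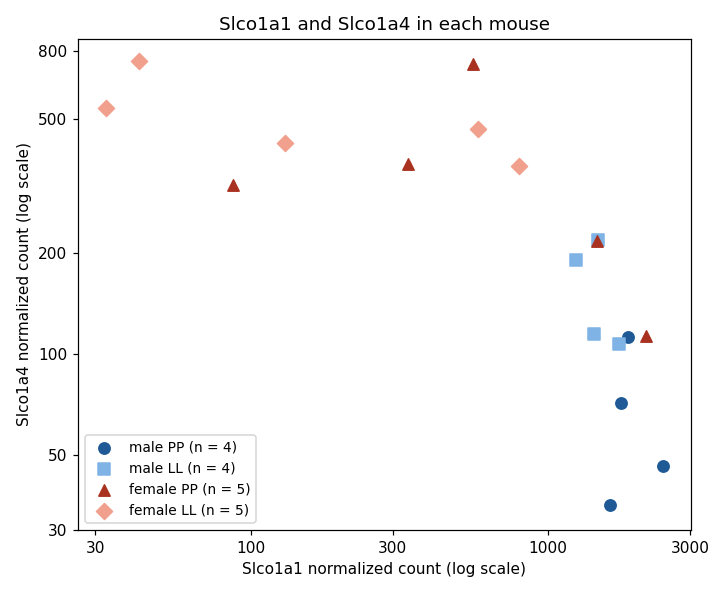
Slco1a1 (x axis) against Slco1a4 (y axis) in normalized counts, both on log scales, with 1 point for each of the 18 mice. The male PP mice lie at the lower right and the female LL mice at the upper left. The female PP mouse with 2135 counts of Slco1a1 lies next to male PP mouse 4, and the one with 1465 next to male LL mouse 1.

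Within each sex, mice with more Slco1a1 tended to have less Slco1a4, but no p adjusted over the 2 sexes was below 0.05. Over the 10 females Pearson's r of the log2 values was -0.641 (permutation p = 0.0351, adjusted over the 2 sexes 0.0701) and Spearman's rho was -0.648 (permutation p = 0.0487, adjusted 0.0974). Over the 8 males r was -0.635 (exact permutation p = 0.0975, two-sided, adjusted 0.0975) and rho was -0.619 (exact permutation p = 0.115, adjusted 0.115). Without the 2 mice farthest from the median of Slco1a1, r was -0.499 over 8 females and -0.296 over 6 males, so the relation rested in part on those mice. This pair of genes was chosen after its values were seen, both genotypes enter each r, and groups of 4 or 5 mice are too small for an r of their own.

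Slco1a1 and Slco1a4 are close relatives. With Slco1b2 they lie within 318 kilobases on chromosome 6 (GRCm39, chr6:141575179-141892690), Slco1b2 on the plus strand and both Slco1a genes on the minus strand. Of the 31-base words in the transcripts of Slco1a1, 4.02% also occurred in another gene, mostly Slco1a4, Slco1a5 and Slco1a6, and of those of Slco1a4 4.94% did. The counts of the pair therefore rest on sequence that is almost all their own. Slco1a5, Slco1a6 and Slco1a8, the other near relatives that shared most words with the pair, had at most 0.940, 7.25 and 2.73 normalized counts in any library and were not tested.

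Slco1b2 encodes OATP1B2, the rodent counterpart of the human OATP1B carriers for bilirubin and statins, and had the highest normalized counts of the 10 genes. The range was 4325 to 5042 in male PP and 3192 to 5462 in female PP mice, while male LL mice ranged from 2470 to 5725 and female LL mice from 2772 to 4108. The groups overlapped in all 4 comparisons. The log2 fold changes were -0.21 ± 0.21 by genotype in males, -0.33 ± 0.19 by genotype in females, -0.22 ± 0.20 by sex in PP mice and -0.34 ± 0.20 by sex in LL mice, with DESeq2 adjusted P values of 0.775, 0.401, 0.652 and 0.329. Without male LL mouse 4, which had the lowest value (2470), DESeq2 called the difference between female and male LL mice (log2 -0.52, adjusted P = 0.0495). That mouse also had the lowest male LL value of Slc10a1, Slco1a1, Slco2b1, Abcb11, Abcb4, Abcc3 and Abcg2, but not of Slco1a4 or Abcc2.

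Slc10a1, the main sodium-dependent route of conjugated bile acids into the hepatocyte, had group means between 2635 and 3179 normalized counts. Single male PP mice had 3162, 2409, 2534 and 2433 and male LL mice had 3501, 3104, 3012 and 1995. Female PP mice had 2777 to 3410 and female LL mice 2805 to 3476. The groups overlapped in every comparison, and the 95% interval of the genotype effect ran from -0.15 to 0.43 on the log2 scale in males and from -0.21 to 0.31 in females. By sex the log2 fold change was 0.22 ± 0.14 in PP and 0.13 ± 0.14 in LL mice (adjusted P = 0.460 and 0.660, DESeq2).

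Slco2b1, an uptake carrier for sulfated steroids, had 408 to 465 normalized counts in male PP and 371 to 430 in male LL mice. Female PP mice had 416 to 534 and female LL mice 447 to 511. Each of the female LL mice thus stood above all 4 male LL mice, by 1.20-fold (log2 0.26 ± 0.10, adjusted P = 0.0674, DESeq2). A difference of that size lies under the fold limit, and the adjusted P also missed its own limit. By genotype the log2 fold change was -0.09 ± 0.10 in males and 0.04 ± 0.09 in females, the narrowest intervals of the 10 genes.

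At the canalicular membrane, Abcg2 encodes BCRP, an efflux pump for urate, sulfated conjugates and many drugs. Normalized counts were 390, 381, 498 and 407 in male PP mice, and male LL mice had 355, 405, 410 and 224. Female PP mice had 174, 142, 175, 118 and 166, and female LL mice had 148, 159, 177, 116 and 123. No female of either genotype reached the lowest male, which was male LL mouse 4. Its level was 2.70-fold lower in females than in males among PP mice (log2 fold change -1.43 ± 0.18, adjusted P = 7.25e-13, DESeq2) and 2.40-fold lower among LL mice (log2 -1.26 ± 0.18, adjusted P = 1.66e-09, DESeq2). It was the 1 gene of the 10 called lower in females, beside 2.77% of all genes among PP and 2.79% among LL mice. DESeq2 or edgeR called it in all 27 alternative fits of either comparison, with adjusted P values up to 3.76e-05 in PP and 0.000257 in LL mice.

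By LL genotype Abcg2 showed no call. The log2 fold change was -0.27 ± 0.19 in males (adjusted P = 0.646) and -0.10 ± 0.18 in females (adjusted P = 0.852, DESeq2), with 95% intervals from -0.64 to 0.11 and from -0.44 to 0.25. The interaction was 0.17 ± 0.26 on the log2 scale with a 95% interval from -0.34 to 0.68. DESeq2 gave no adjusted P for that interaction, because its filter on mean count left the gene out there.

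Markers of other cells differed by sex as well. Among PP mice, of 7 sinusoidal endothelial markers 4 (Fcgr2b, Stab1, Kdr and Clec4g) were called higher in the females by DESeq2, and of 6 tested stellate cell markers 3 (Dcn, Lrat and Reln) were, while edgeR called 4 and 2. The endothelial list summed to 227 to 383 normalized counts in male PP and 424 to 803 in female PP mice, and the stellate list to 318 to 632 and 746 to 1016. Among LL mice DESeq2 and edgeR called 0 genes of either list, with 2 endothelial and 1 stellate marker at an unadjusted p under 0.05. Of 5 erythroid markers 1, Alas2, the first enzyme of heme synthesis in red cell precursors, was called lower in females of both genotypes by both tools. It had 481 ± 46.6 normalized counts in male PP, 72.7 ± 25.5 in female PP, 395 ± 79.9 in male LL and 92.8 ± 38.7 in female LL mice. The erythroid list summed to 1982 to 5889 in male PP and 1282 to 2275 in female PP mice, and to 966 to 4155 and 1125 to 6055 in the LL groups. The rest of that list, Hba-a1, Hba-a2, Hbb-bs and Hbb-bt, had lower means in female than in male PP mice. Among LL mice their means were higher in females, opposite to Alas2, such as 887 ± 547 against 610 ± 332 in males for Hba-a1. For Hbb-bs they were 1990 ± 1279 and 1215 ± 668, and none of these genes was called by sex.

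Among LL mice 1 of 6 Kupffer cell markers, Vsig4, was called higher in females by both tools (45.8 ± 2.59 in males, 82.1 ± 17.4 in females), and the list summed to 429 to 724 and 502 to 832. By LL genotype no Kupffer or endothelial marker was called. At an unadjusted p under 0.05 (DESeq2) there were 5 of 6 Kupffer markers in males and 3 in females, against 7.81% and 13% of all genes. Each Kupffer mean was lower in LL than in PP mice of both sexes. Of 7 endothelial markers 0 in males and 5 in females had such a p, beside the same shares of all genes. In females each endothelial mean but that of Stab1 was lower in LL mice, and in males each but that of Stab2 was higher. For the interaction 4 of 7 endothelial, 3 of 6 stellate, 3 of 5 erythroid, 1 of 6 Kupffer and 2 of 7 hepatocyte markers did (5.67% of all genes). Of these DESeq2 called only Alb, and edgeR called 0. Lgals4 was called higher in female LL mice than in male LL mice by both tools and than in female PP mice by DESeq2 alone. That list summed to 223 to 404 in male PP, 408 to 459 in male LL, 341 to 569 in female PP and 452 to 664 in female LL mice. Of the 7 hepatocyte markers, DESeq2 called Alb higher and Serpina1c lower in female PP mice and Serpina1c lower in female LL mice, and edgeR called 1 in each genotype. The part of any of these cells in the differences of Slco1a4 and Abcg2 was not tested.

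**Figure D3:**
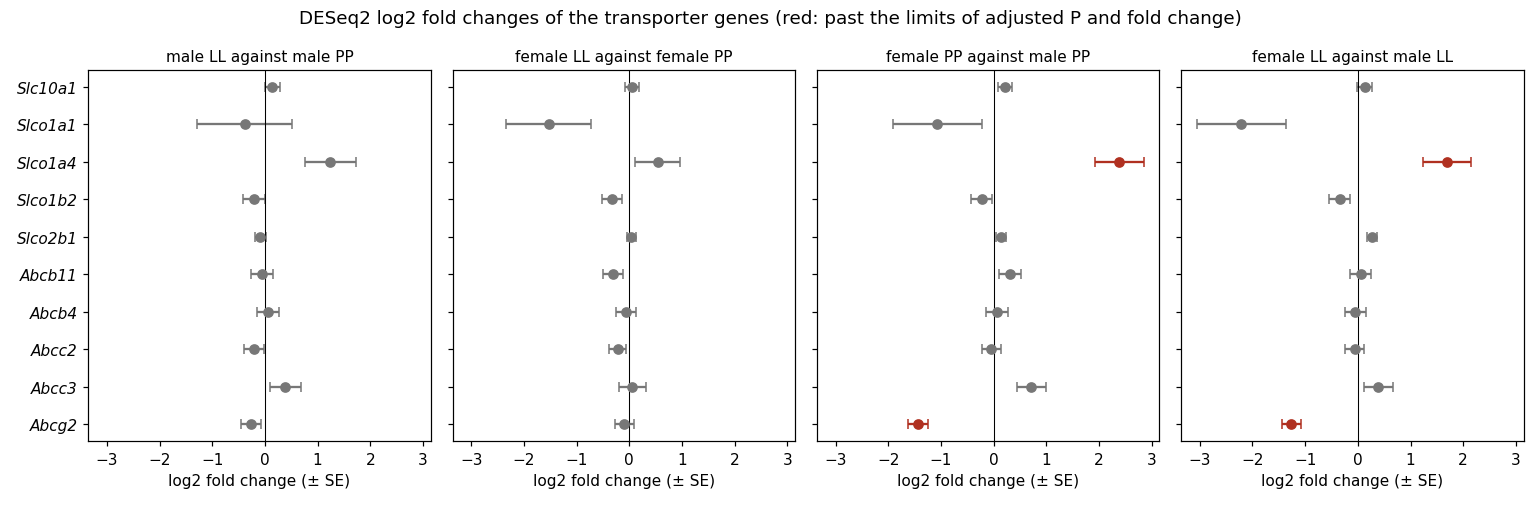
DESeq2 log2 fold changes (x axes, points; bars ± SE) of the 10 transporter genes (y axis) for LL against PP in each sex and for female against male in each genotype, with genes past the limits of adjusted P and fold change in red. Only Slco1a4 (2.39 and 1.69) and Abcg2 (-1.43 and -1.26) are red, both in the panels for sex, and the bars of Slco1a1 are the widest.

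Both genes that differed by sex can be shown with the stretch just before their start. The 250 bases upstream of the most counted transcript of each follow, read from the GRCm39 genome with GENCODE starts and written 5′ to 3′ on the strand of the gene. The Slco1a4 stretch is on the minus strand at chr6:141802037-141802286 and the Abcg2 stretch on the plus strand at chr6:58617251-58617500, inside the annotated gene, which has other transcripts that start further upstream. Letters in capitals would mark a match to one of 3 motifs searched on both strands, and neither stretch has one.
Slco1a4: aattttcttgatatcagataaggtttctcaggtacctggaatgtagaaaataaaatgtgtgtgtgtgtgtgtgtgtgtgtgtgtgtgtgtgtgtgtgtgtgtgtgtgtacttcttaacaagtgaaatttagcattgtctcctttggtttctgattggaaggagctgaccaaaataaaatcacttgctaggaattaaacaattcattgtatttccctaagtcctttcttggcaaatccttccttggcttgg
Abcg2: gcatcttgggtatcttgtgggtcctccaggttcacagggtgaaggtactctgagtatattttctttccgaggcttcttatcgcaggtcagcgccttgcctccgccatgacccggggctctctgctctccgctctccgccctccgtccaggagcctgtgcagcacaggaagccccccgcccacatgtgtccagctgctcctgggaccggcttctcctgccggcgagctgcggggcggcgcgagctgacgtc
The stretches are unlike in composition. The Slco1a4 stretch holds a long GT repeat, 37.6% G or C and 0 CG pairs, and the Abcg2 stretch holds 64% G or C and 17 CG pairs.

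The motifs were TTCNNNGAA, the letters bound by STAT5, through which growth hormone acts; the perfect inverted repeat bound by FXR, with a 1-base spacer, on both strands; and TGACNNNGC, the core of the antioxidant response element. TTCNNNGAA was present in 3 of the 10 stretches and in 6.72% of 10937 stretches of the same length upstream of tested genes. TGACNNNGC was in 0 of the 10 and 10.4% of all, and the FXR repeat, as spelled, was in 0 of the 10937. The 3 matches are shown here with 15 bases on each side and the match in capitals, since they fell in genes other than those that differed by sex. They lie at chr12:81015509-81015547 (minus strand, 53 to 45 bases upstream of the start), chr6:141575023-141575061 (plus strand, 141 to 133 bases upstream) and chr7:99345126-99345164 (minus strand, 133 to 125 bases upstream). Each start is that of the most counted transcript. The Slco2b1 match lies inside the annotated gene, which extends further upstream, to chr7:99360547.
Slc10a1: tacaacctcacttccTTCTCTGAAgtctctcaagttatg
Slco1b2: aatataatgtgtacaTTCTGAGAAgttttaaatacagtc
Slco2b1: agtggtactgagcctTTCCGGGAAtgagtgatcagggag
These 3 genes were not called in any comparison. A match of letters does not show that a factor binds there, and no match in this window says nothing of sites elsewhere.

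Abcb11 encodes BSEP, the pump that secretes bile acids into bile. Normalized counts were 1218 to 2011 in male PP mice, 1388 to 1899 in male LL, 1446 to 3059 in female PP and 1264 to 2063 in female LL mice. All groups overlapped, and the 3059 counts of female PP mouse 2 stood above the rest. By genotype the log2 fold change was -0.06 ± 0.22 in males and -0.32 ± 0.19 in females (adjusted P = 0.980 and 0.440, DESeq2), and with the offset for transcript length the value in females was 0.36. By sex it was 0.31 ± 0.20 in PP and 0.05 ± 0.20 in LL mice.

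Abcb4 encodes the floppase that delivers phosphatidylcholine to bile. It was the gene whose group means lay closest, within 0.07 on the log2 scale. Male PP mice had 667 to 839 normalized counts, male LL mice 434 to 919, female PP mice 576 to 885 and female LL mice 534 to 909. The log2 fold changes lay between -0.06 and 0.07 in the 4 comparisons, each with an SE of 0.19 to 0.21, and the lowest adjusted P was 0.923 (DESeq2).

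Abcc2 encodes MRP2, which secretes bilirubin glucuronides and glutathione conjugates into bile. Libraries of male PP mice held 1452 to 1842 normalized counts, male LL mice 977 to 1914, female PP mice 1179 to 2087 and female LL mice 1164 to 1449. The LL groups had the lower means in both sexes, with log2 fold changes of -0.21 ± 0.19 in males and -0.22 ± 0.17 in females (adjusted P = 0.734 and 0.566, DESeq2). With the offset for transcript length both turned to the other direction, at 0.06 and 0.32.

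Abcc3 encodes MRP3, the basolateral pump that returns glucuronides and bile acids to blood. Male PP mice had 235, 243, 428 and 533 normalized counts and male LL mice had 533, 453, 588 and 312. Female PP mice had 455, 499, 551, 466 and 988, and female LL mice had 423, 530, 620, 752 and 763. The 2 lowest values were those of male PP mice 1 and 2, and the highest was that of female PP mouse 5. By sex the log2 fold change was 0.72 ± 0.28 in PP mice, with an unadjusted p of 0.00975 and an adjusted P of 0.103 (DESeq2).

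In DESeq2 the sex difference of Abcc3 in PP mice was called with age as a term (log2 0.97, adjusted P = 0.000273) and without male PP mouse 4 (log2 0.97, adjusted P = 0.0163), and with the offset for transcript length its value was 0.00. Among LL mice the log2 fold change by sex was 0.39 ± 0.28 (adjusted P = 0.453), and by genotype it was 0.39 ± 0.29 in males and 0.06 ± 0.26 in females (adjusted P = 0.656 and 0.944, DESeq2).

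Over the 10 genes, then, the groups did not overlap in 0 genes by LL genotype in either sex, where 4.07% of all tested genes did not overlap in males and 2.66% in females. Among PP mice 1 gene was higher (Slco1a4) and 1 was lower (Abcg2) in females without overlap, against 5.21% and 4.53% of all genes. Among LL mice 2 were higher (Slco1a4 and Slco2b1) and 2 were lower (Slco1a1 and Abcg2), against 3.64% and 4.53%. The median log2 fold change of the 10 genes was -0.07 by genotype in males, -0.08 by genotype in females, 0.10 by sex in PP mice and 0.00 by sex in LL mice, and for all tested genes it lay between 0.00 and 0.01 in these comparisons.

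Levels can be set side by side only per length, as TPM, and within a group. In male PP mice Slco1b2 had the highest summed TPM (228 ± 87.5, SD, n = 4), followed by Slc10a1 (173 ± 19.5) and Abcb11 (122 ± 33.8). Neighbours among these 3 overlapped, and a gap without overlap separated them from Slco1a1 (49.5 ± 9.09). Abcg2 (40.6), Abcc2 (30.3), Abcc3 (28.2), Abcb4 (17.2), Slco2b1 (16.8) and Slco1a4 (3.48) followed, each overlapping with the next. In female PP mice Slc10a1 came first (362 ± 24.0, n = 5), without overlap with Slco1b2 (219 ± 41.9) and Abcb11 (193 ± 95.6), and Abcg2 came last (16.7 ± 2.73). Slco1a4, with a TPM of 23.5 ± 20.1, had the next lowest mean in these mice. TPM was not compared between groups, because the effective length it divides by moves with the fragment length.

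**Figure D4:**
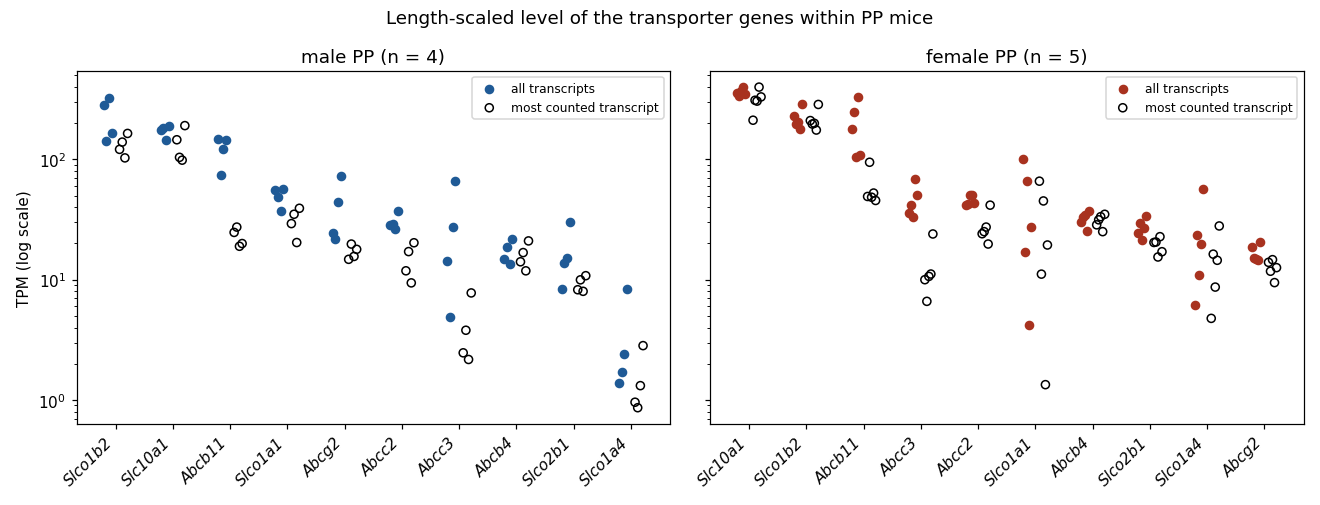
TPM on a log scale (y axis) of the 10 transporter genes (x axis, in order of the mean summed TPM) in male PP (n = 4) and female PP mice (n = 5), with filled points for the sum over all transcripts and open points for the most counted transcript, 1 point for each mouse. Slco1b2, Slc10a1 and Abcb11 lead by summed TPM in both panels, and the open points of Abcb11 lie far below its filled points.

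The order depends on which transcripts are read. By the TPM of the most counted transcript alone, a measure chosen after seeing the data, Slc10a1 (134) and Slco1b2 (132) led in male PP mice, then Slco1a1 (30.9) and Abcb11 (22.7), and 2 of the 10 genes kept their place. Much of the summed TPM of Abcb11 lay on Abcb11-203, a transcript of 648 bases and 2 exons with no annotated coding sequence, which held 20.9% ± 5.32 of the counts of the gene in male PP mice (SD, n = 4).

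The shares of transcripts were compared between the genotypes in each sex, and no difference passed after adjustment. The lowest unadjusted p-values were those of females. There Slco1a1-201, a transcript of 3395 bases and 14 exons, held 57.2% ± 16.1 of the counts of Slco1a1 in PP females and 29.8% ± 11.3 in LL females (exact permutation p = 0.0159, n = 5 and 5). Abcc2-201 held 89.0% ± 7.24 and 74.9% ± 6.99 of the counts of Abcc2 (exact permutation p = 0.0159), and Abcb11-202 held 85.5% ± 7.32 and 72.4% ± 7.78 of those of Abcb11 (exact permutation p = 0.0317). Slco1a4-203 held 94.7% ± 4.80 and 99.0% ± 0.590 of those of Slco1a4 (exact permutation p = 0.00794, the smallest that 5 against 5 allows). These are 20 two-sided tests, of the most counted transcript of each gene in each sex, and no adjusted p was below 0.106 (Benjamini-Hochberg).

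Fragment length was set beside the shares of Slco1a1 and Abcc2. In the 5 libraries with a fragment length under 300 bases, 4 of them female LL, Slco1a1-201 held 33.8% ± 11.6 of the counts of Slco1a1, against 58.5% ± 11.8 in the 5 libraries over 500 bases, none of them female LL. Abcc2-202, a transcript of 1926 bases and 1 exon, held 26.5% ± 5.64 of the counts of Abcc2 in the first and 15.9% ± 8.54 in the second. In females, fragment length went largely with genotype: 4 of the 5 female LL libraries had shorter fragments than any female PP library, and female LL mouse 3, at 377 bases, was above 1 of them (369 bases). Male LL mouse 2, with the shortest fragments (203 bases), held 42.3% on Slco1a1-201. Female PP mouse 4, with the fewest Slco1a1 counts of its group (87.0 normalized), held 28.8% on it. The part of fragment length, or of the Slco1a1 count, in these shares was not tested.

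**Figure D5:**
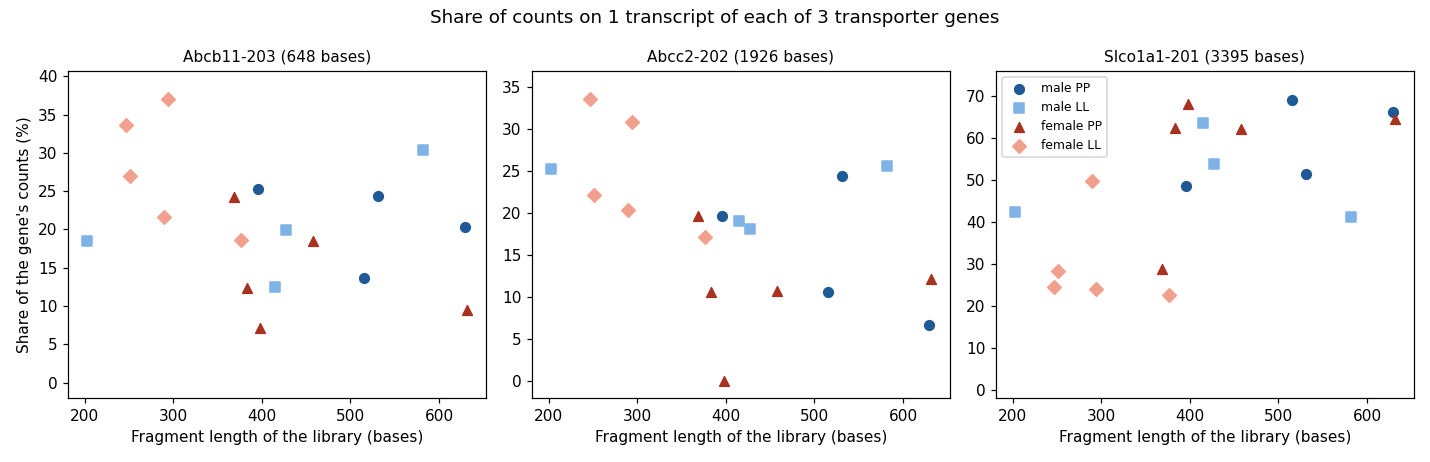
Share of the counts of Abcb11, Abcc2 and Slco1a1 held by 1 transcript of each (y axes, percent) against the fragment length of the library in bases (x axes), with 1 point for each of the 18 mice. Slco1a1-201 lies below 30% in 4 of the 5 female LL mice and in female PP mouse 4 (28.8%), and the shares of Abcb11-203 and Abcc2-202 are highest in female LL mice.

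Of 48 symbols listed for other transporters, regulators and anchoring proteins of this pathway, 47 were in the annotation and 37 were tested. The symbol not found, Slc9a3r1, is a former name of Nherf1, which is also on the list. By LL genotype in males DESeq2 called 0 of the 37 (0.283% of all tested genes), with 4 at an unadjusted p under 0.05 (7.81% of all). In females 11 had an unadjusted p under 0.05 (13% of all), and edgeR called 0 in both sexes. DESeq2 called 0 higher and 1 lower in females, where it called 0.658% of all genes in either direction. That gene was Klb, the co-receptor for the intestinal hormone that restrains bile acid synthesis, with 74.6 ± 13.8 normalized counts in PP and 42.4 ± 10.9 in LL females (log2 -0.80 ± 0.23, adjusted P = 0.0456, DESeq2). By sex 4 of the 37 were called higher and 2 lower in female PP mice, beside 3.68% and 2.77% of all tested genes. In female LL mice 7 were called higher and 0 lower, beside 3.33% and 2.79% of all. With edgeR 5 were called in each genotype, of either direction. For the interaction DESeq2 and edgeR called 0, with 4 at an unadjusted p under 0.05 in DESeq2. Of all tested genes DESeq2 called 0.119% there, and 5.67% had an unadjusted p under 0.05.

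Cux2, a repressor known for its expression in female liver, had at most 3.20 normalized counts in any male and 17.3 to 147 in females (adjusted P = 1.23e-09 in PP and 7.60e-06 in LL mice, DESeq2). Bcl6, a repressor known to act against STAT5 in male liver, fell by 2.09 ± 0.62 on the log2 scale in females relative to males among PP mice (adjusted P = 0.0147, DESeq2). Abcb1a, a drug efflux pump of the canalicular membrane, rose from 4.18 ± 2.05 in male PP to 21.1 ± 10.3 in female PP mice, and Abcc5 (log2 fold change 1.84 ± 0.44) and Klb (0.80 ± 0.24) were also higher there. Slc22a7, an uptake carrier for organic anions, was the other gene lower in female PP mice (144 ± 26.2 in males, 59.2 ± 18.2 in females, adjusted P = 0.00230, DESeq2).

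Among LL mice the 7 genes higher in females included Cux2, Abcc6, Nr1i3, Bsg and Stat5b. Nr1i3, the nuclear receptor CAR, had 984 ± 325 normalized counts in males (n = 4) and 1877 ± 344 in females (n = 5), with an adjusted P of 0.00288 in DESeq2. Stat5b, which carries the growth hormone signal, had 53.7 ± 12.1 and 85.5 ± 19.5 (adjusted P = 0.0317, DESeq2).

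Slc10a2, the apical bile acid carrier best known from ileum and bile duct, had been set among the cholangiocyte markers and was the 1 of those 7 with enough counts to test. It had 63.1 ± 14.7 normalized counts in male PP, 92.9 ± 26.5 in male LL, 32.9 ± 8.97 in PP females and 29.2 ± 11.9 in LL females. Females did not overlap with males of their genotype (log2 -0.94 ± 0.28, adjusted P = 0.0171 in PP, and -1.65 ± 0.28, adjusted P = 6.18e-07 in LL mice, DESeq2). With edgeR the call in PP mice was lost (adjusted P = 0.0529) and that in LL mice was not (adjusted P = 0.00138). Krt19 and Krt7 had too few counts to be tested, and the part of bile duct cells was not tested.

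The genes most like Slco1a1 and Slco1a4, the pair with the widest range of group means (3.62 and 3.01 on the log2 scale), were found by Pearson's r of log2(normalized count + 1) over the 18 mice. For Slco1a1 they were Hsd3b5, a steroid dehydrogenase of male mouse liver (r = 0.94), Sort1 (0.93) and Slc22a28 (0.92). Within the 10 females r was 0.94, 0.95 and 0.89, and within the 8 males 0.69, 0.23 and 0.05. Hsd3b5 had a mean of 1545 normalized counts in male PP, 712 in male LL, 134 in PP females and 23.7 in LL females. For Slco1a4 they were Acot4, an acyl-CoA thioesterase of peroxisomes (r = 0.92), Slc16a7 (0.91) and Gabbr2 (0.91), with r of 0.80, 0.80 and 0.68 within females and 0.80, 0.71 and 0.89 within males. These genes were picked as the highest of all tested, so their r is a description, and sex and genotype enter it.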

How the data were processed

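Liver RNA was extracted by the authors with Trizol and columns, and each of 18 mice gave 1 library. The authors assigned the untrimmed reads to GENCODE mouse transcripts (release M26, GRCm39) with Salmon, version 1.4.0 in the submitters' processing notes. The deposited estimated count of each transcript is not scaled for depth and is often not whole. The deposited TPM is scaled by Salmon to the same total in every library, with an effective length, also deposited, that falls as fragments lengthen. Sequencing layout is not given in the sources used here.

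Counts were summed for each gene through GENCODE M39, which held at least 99.76% of the counts of a library, and rounded. Genes with 10 counts or more in at least 4 libraries, 10938 in all, were tested with DESeq2 1.42.0 in R 4.3.3. All 18 libraries entered 1 fit of 4 groups. Benjamini-Hochberg adjustment ran over the genes that DESeq2's own filter on mean count kept in each comparison. Shares of all tested genes are out of all 10938, and genes without an adjusted P count there as not called. A call needed an adjusted P under 0.05 and, except for the interaction, a fold change of 1.3 or more or of 0.7 or less. Adjusted P values that DESeq2 left empty stayed empty. Errors are the standard error (SE) for fold changes and otherwise the standard deviation (SD) over mice. Alternatives, 27 for each comparison of 2 groups and 26 for the interaction, were edgeR 4.0.16, other scalings and filters, an offset for transcript length, terms for age, fragment length and replicate number, and leaving out each mouse. Scripts were tested on simulated counts. No pair of libraries of a group agreed within sampling noise (lowest chi-square per degree of freedom 11.7).

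The 10 transporters and all lists were chosen with earlier results of these data known. All 10 are named, with called genes of the other list (up to 6 in a comparison, by adjusted P) and the 3 genes most like each of the 2 with the widest range of group means. Slco1a5, Slco1a6 and Slco1a8 are named for their sequence. Of the genes this rule takes from the other list 1 is not reported here, and 1 more gene called between female and male LL mice fell outside the limit of 6. Replicate numbers did not pair the mice, since same-numbered mice had correlations from -0.276 to 0.193. Within each group, though, age by label never fell as the replicate number rose.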

Additional observations from a re-analysis of the deposited data

Results flagged for a closer look

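In 40 looks, of each of the 10 transporter genes in each of the 4 groups, 3 single mice stood apart from the rest of their group by Dixon's test, and chance gives about 1 in 20. Slc10a1 had 3162 normalized counts in male PP mouse 1, the highest of 4, where the others had 2409 to 2534. Abcc3 had 988 normalized counts in female PP mouse 5, the highest of 5, where the others had 455 to 551. Slco2b1 had 447 normalized counts in female LL mouse 4, the lowest of 5, where the others had 493 to 511. Male PP mouse 1 and female LL mouse 4 had 3794671 and 3982871 estimated counts, the lowest totals of the 18 libraries. No cause was tested.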

How the results depend on the processing

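Of the 440 values of the 10 genes under alternative settings, 409 kept their direction and their side of the threshold, 3 gained a call, 1 lost it and 27 changed sign, none of these having been a call; of 900 values with 1 mouse left out, 866 kept both, 3 gained a call and 31 changed sign. With the offset for transcript length 1 transporter (Abcg2) was called between female and male LL mice, and 7 genes of the list of other transporters and regulators in any comparison against 12; with 1 mouse left out, 2 to 3 transporters were called by sex in each genotype, 0 by LL genotype in either sex and for the interaction, and 10 to 13 genes of the list. In what follows, values are log2 fold changes, and the cause of a change of sign was not tested. With the offset these were, by LL genotype in males, Abcb11 0.025, Abcc2 0.058 and Abcc3 -0.18; in females, Abcb11 0.36, Abcb4 0.18 and Abcc2 0.32; by sex in PP mice, Slco2b1 -0.035 and Abcb11 -0.16; by sex in LL mice, Abcb4 0.11 and Abcc2 0.072; and for the interaction, Slco1b2 0.45, Abcb11 0.33, Abcc2 0.26 and Abcc3 0.70. With fragment length as a term they were Slc10a1 -0.071 and Slco2b1 -0.015 by LL genotype in females, Abcb11 -0.061 and Abcc2 0.082 by sex in LL mice, and Abcc2 0.035 by sex in PP mice and 0.047 for the interaction. With age as a term they were Abcb11 0.087 by LL genotype in males and -0.081 by sex in LL mice, Abcc2 0.0096 by sex in PP mice and Abcc3 -0.19 by LL genotype in females. The replicate block rests on numbers that did not pair the mice but ran with age within each group. With this block the changes of sign were Abcb4 -0.00247 by LL genotype in males and -0.031 by sex in PP mice and Abcc2 0.026 for the interaction. The block called Slco1a1 between female and male LL mice (log2 -2.65, adjusted P = 0.0350 in DESeq2) and 8 genes of the list.

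With 1 mouse left out, values ran across 0 for Abcb11 by LL genotype in males (-0.17 to 0.066) and by sex in LL mice (-0.052 to 0.16), Abcb4 by LL genotype in males (-0.057 to 0.24) and females (-0.16 to 0.030) and by sex in LL mice (-0.24 to 0.058), Abcc2 by sex in PP (-0.17 to 0.039) and LL mice (-0.20 to 0.13) and for the interaction (-0.15 to 0.18), Abcc3 by LL genotype in females (-0.028 to 0.32), Slc10a1 by sex in LL mice (-0.012 to 0.23) and for the interaction (-0.23 to 0.014), Slco1b2 for the interaction (-0.30 to 0.083) and Slco2b1 by LL genotype in females (-0.011 to 0.076). The order of the genes by level in male PP mice was the same per effective length and kept 6 to 10 places with 1 mouse left out.

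Depth limits the lowest values most, such as Slco1a4 in males (29 to 176 estimated counts) and Slco1a1 in some females (down to 34). Abcg2 in females had 94 to 239 estimated counts. The 95% interval of the Slco1a1 log2 fold change by LL genotype in males, from -2.14 to 1.37, holds large differences in either direction. The fit shares 1 dispersion for each gene over all 4 groups, so this width also takes in the spread of the females (32.5 to 2135 normalized counts). The males themselves ran from 1617 to 2435 in PP and from 1242 to 1733 in LL mice.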
